A study of Mus musculus and Rattus norvegicus with 36 samples.

Results

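The mitochondrial respiratory chain was followed through liver and kidney of rodents fed different amounts of selenium (Se). Members were all genes of the arrays whose single symbol starts with Ndufa, Ndufb, Ndufc, Ndufs, Ndufv, Uqcr, Atp5, Cox4, Cox5, Cox6, Cox7 or Cox8, or is Sdha, Sdhb, Sdhc, Sdhd or Cycs. This gave 279 of the 55771 probe sets with 1 symbol, for 91 of 18193 genes of the mouse array and 86 of 14217 genes of the rat array, with 68 symbols in common. A gene with several probe sets is given by the brightest of them in that tissue, taken over all its diets. Levels are log2 values, so a difference of 1 is a doubling, and levels of different probe sets are not compared with each other.

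Mouse and rat feeding experiments were analysed on 36 arrays, with 3 arrays for each diet and tissue and 1 animal on each array. Male weanling mice from a wild-type colony of mainly C57 black background were fed a Se-deficient torula-yeast diet, for 35 days, either alone (Se-deficient) or with sodium selenite at 0.05 μg Se/g or at the Se-adequate 0.2 μg Se/g, and liver and kidney were taken. Male weanling Holtzman rats were fed the same kind of diet for 28 days, and liver was taken. Rat study 2 compared the Se-deficient diet and 2 and 5 μg Se/g with the Se-adequate 0.24 μg Se/g, and rat study 1 set 0.8 μg Se/g against 0.08 μg Se/g. All diets held the same base, with added vitamin E and methionine, so every group differed from its control in Se alone as far as the labels and methods give it. Hepatocyte markers were high on all liver arrays (Alb at 14.76 to 14.90 in mouse and 14.90 to 15.03 in rat), and proximal tubule markers on all kidney arrays (Slc34a1 at 13.05 to 13.73, against 5.29 to 5.70 in mouse liver).

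The respiratory chain passes electrons from NADH (complex I) and succinate (complex II) through coenzyme Q, complex III and cytochrome c to oxygen at complex IV, and the proton gradient this builds drives ATP synthase (complex V). Hepatocytes and proximal tubule cells are rich in mitochondria and depend on this pathway. No subunit of the chain is itself a selenoprotein, but selenoproteins such as glutathione peroxidases remove the peroxides that the chain gives off. Most subunits are encoded in the nucleus, and their genes are known targets of the transcription factors NRF-1 (gene Nrf1), GABP, ERRα (gene Esrra) and YY1. In the mouse the members were 34 genes of complex I, 8 Ndufaf genes (factors that help to assemble complex I), 4 of complex II, 8 of complex III, 19 of complex IV, 17 of complex V and Cycs, which encodes cytochrome c. In the rat they were 34, 6, 4, 7, 19 and 16 genes in the same order, without Cycs. The mouse array uses older names for complex V (Atp5a1 and Atp5b for the α and β subunits, Atp5f1a and Atp5f1b in the rat).

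The promoters of the mouse members are shown for the motifs of these factors. RefSeq promoters (GRCm38.p6, from 250 bases before to 50 after each start) were matched for 75 of 91 mouse member genes, with 80 windows. The NRF-1 core CGCATGCG, which reads the same on both strands, stood in 11 of 80 member windows (13.8%) and in 615 of all 32851 windows (1.87%). The YY1 core AAGATGGCG, searched on both strands, stood in 7 member windows (8.75%, against 1.40% of all). The ERRα core TCAAGGTCA stood in 2 (2.50%, against 0.423%), and the GABP core CCGGAAGT in 5 (6.25%, against 3.89%). Only the windows of Uqcr11 and Atp5j held 2 of these cores, NRF-1 with GABP and NRF-1 with YY1 respectively. The stretches around 8 of these cores that lay before the start of the gene are written below 5′ to 3′ on the strand of the gene, with the core in capitals.
Cycs, NRF-1 core (chr6:50566613-50566640, minus strand): catgctagctCGCATGCGcgcgcacaaa
Cox6a1, NRF-1 core (chr5:115349102-115349129, minus strand): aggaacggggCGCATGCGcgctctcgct
Atp5g2, NRF-1 core (chr15:102671071-102671098, minus strand): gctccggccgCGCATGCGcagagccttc
Atp5k, NRF-1 core (chr5:108434431-108434458, minus strand): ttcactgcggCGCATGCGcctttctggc
Ndufaf4, NRF-1 core (chr4:24897961-24897988, plus strand): cagatgtctgCGCATGCGcctgtgcgga
Atp5j, NRF-1 core (chr16:84835106-84835133, minus strand): ggccagaataCGCATGCGtacagtgcag
Atp5j, YY1 core (chr16:84835046-84835074, minus strand): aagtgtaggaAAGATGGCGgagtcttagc
Atp5g3, ERRα core on the other strand (chr2:73911360-73911388, minus strand): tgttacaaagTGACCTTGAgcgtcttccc
These letters describe the windows, and binding was not measured. The changes of these genes between kidney and liver are given with that comparison.

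Se deficiency left the respiratory chain of mouse liver close to its Se-adequate level. None of the 91 members passed the test (limma, Benjamini-Hochberg adjustment over all probe sets, threshold 0.05), where 0.0222% of all probe sets did. At an unadjusted p under 0.05 there were 3 members (3.30%, against 4.63% of all probe sets). The median change was −0.01 on the log2 scale, the same as the −0.01 of all genes, and the members ran from −0.23 to 0.24. The 95% interval of all 91 members lay within 1.5-fold in either direction.

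The 3 members with the smallest p in Se-deficient mouse liver were Ndufb4, Uqcrc2 and Cycs. Uqcrc2, a core protein of complex III, was at 11.71, 11.83 and 11.50 in Se deficiency and at 11.47, 11.48 and 11.36 at 0.2 μg Se/g. The groups did not overlap, and the difference was 0.24 (SE 0.09, adjusted p = 0.93 by limma). Cycs was at 12.70, 12.72 and 12.62 against 12.50, 12.46 and 12.43, again without overlap, with a difference of 0.21 (SE 0.08, adjusted p = 0.93 by limma). Other probe sets of these genes did not all share this: the second one of Uqcrc2 differed by 0.02 (SE 0.09), 2 others of Cycs by 0.11 and 0.07, and the last of Cycs by −0.23 (SE 0.09), which is as large and in the other direction. Ndufb4, an accessory subunit of complex I, differed by −0.19 (SE 0.07, adjusted p = 0.93 by limma) on a probe set with means of only 4.37 and 4.56.

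At 0.05 μg Se/g the members of mouse liver lay slightly but broadly lower. The median change was −0.08, against 0.00 for all genes, and 86 of 91 members had a lower mean than at 0.2 μg Se/g, as did 49.2% of all genes. All 34 subunits of complex I, all 17 of complex V and all 8 Ndufaf genes were on this side, with medians of −0.11, −0.08 and −0.13, while complex IV had 15 of 19 lower and a median of −0.04. No member was called, and the call rate over all probe sets was 0%. At an unadjusted p under 0.05 there were 5 members (5.49%, against 1.95% of all probe sets), and 90 of 91 intervals lay within 1.5-fold. Ndufa5, a small accessory subunit of complex I, had the smallest p: it was at 10.15, 10.37 and 10.25, below all 3 Se-adequate values of 10.51, 10.59 and 10.48 (difference −0.27, SE 0.08, adjusted p = 1.0 by limma). Ndufb10 followed with −0.24 (SE 0.09) and Ndufb1 with −0.18 (SE 0.07).

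These small differences were uneven over the animals. Relative to the Se-adequate mean, the median member was at −0.04, −0.07 and −0.14 on the 3 arrays at 0.05 μg Se/g, and at 0.03, 0.00 and −0.04 on the 3 Se-adequate arrays, so the arrays overlapped. Replicate 3 at 0.05 μg Se/g was the lowest, with 74 of 91 members (81.3%) below all Se-adequate arrays, as were 25.6% of all genes. The same array had the highest macrophage markers, whose median over 6 genes was 0.88 above the Se-adequate mean, against 0.18 and 0.03 on replicates 1 and 2. Fewer cells of a type and less RNA per cell cannot be told apart in whole tissue, and the part of other cells in this difference was not tested. Other mitochondrial genes were on the same side: 75 of 76 genes of the mitochondrial ribosome (median −0.10) and 13 of 13 of the TCA cycle (median −0.15), with 0 called. The Se-deficient diet and 0.05 μg Se/g were set against the same 3 control arrays.

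In mouse kidney the chain again stayed within narrow limits. In Se deficiency the median member changed by −0.06 (all genes −0.01), 72 of 91 had a lower mean (all genes 54.2%), and 86 of 91 intervals lay within 1.5-fold. No member was called, against 0.00666% of all probe sets, and 3 had an unadjusted p under 0.05 (3.30%, against 5.42%). At 0.05 μg Se/g the median was −0.06 (all genes −0.01) and 73 of 91 means were lower (all genes 55.3%), with 87 of 91 intervals within 1.5-fold. There 0 members and 0% of all probe sets were called by limma, and 1 member had an unadjusted p under 0.05 (1.1%, against 2.91%).

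Ndufs4, an accessory subunit of complex I, had the smallest p of all members in kidney under both diets. It was at 10.26, 10.33 and 10.22 in Se deficiency and at 10.38, 10.33 and 10.38 at 0.05 μg Se/g, below the Se-adequate values of 10.70, 10.55 and 10.47 without overlap. The difference was −0.30 in Se deficiency (SE 0.08, adjusted p = 0.89 by limma) and −0.21 at 0.05 μg Se/g (SE 0.08, adjusted p = 1.0 by limma), both against the same 3 arrays. Its other probe sets differed by −0.01, −0.09 and −0.06 in Se deficiency. The other members with the smallest p in Se-deficient kidney were Ndufb3 (−0.17, SE 0.07) and Cox7c (−0.38, SE 0.16), and at 0.05 μg Se/g Ndufaf6 (−0.16, SE 0.08) and Ndufaf1 (−0.18, SE 0.09). In liver the same probe set of Ndufs4 was at 10.25, 10.30 and 10.35 in Se deficiency and 10.40, 10.30 and 10.23 at 0.2 μg Se/g, which overlap.

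Cycs and Uqcrc2, which had the largest positive values in Se-deficient liver, had changes in Se-deficient kidney of 0.13 (SE 0.09) and 0.20 (SE 0.12). Neither was called, and the kidney value of Uqcrc2 is that of its other probe set. The response to Se deficiency was also compared between the tissues directly. None of the 91 members was called for a different response in kidney and liver (limma, with 0.00222% of all probe sets called and 1 member at an unadjusted p under 0.05, 1.1% against 5.79% of all). The intervals of 84 of 91 members lay within 1.5-fold. The smallest p belonged to Ndufs4, which fell by 0.29 more in kidney (SE 0.10, adjusted p = 0.83 by limma), followed by Ndufaf2 with −0.29 (SE 0.15) and Ndufaf8 with −0.23 (SE 0.15).

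Core subunits differed little between the diets. In liver, Ndufs1 was at 10.13 ± 0.11 (SD, n = 3) in Se deficiency, 9.92 ± 0.17 under 0.05 μg Se/g and 10.11 ± 0.08 in Se adequacy. Cox4i1 was at 12.83 ± 0.04, 12.79 ± 0.08 and 12.83 ± 0.02, and Atp5b at 13.22 ± 0.07, 13.16 ± 0.09 and 13.23 ± 0.07 in the same order. For each of these genes the ranges of the 3 groups overlapped. In kidney, Cox4i1 was at 13.10 ± 0.07, 13.07 ± 0.08 and 13.13 ± 0.07, and Uqcrc1, a core protein of complex III, at 11.75 ± 0.14, 11.79 ± 0.14 and 11.89 ± 0.27. The Uqcrc1 values overlapped in all 3 groups.

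**Figure D1:**
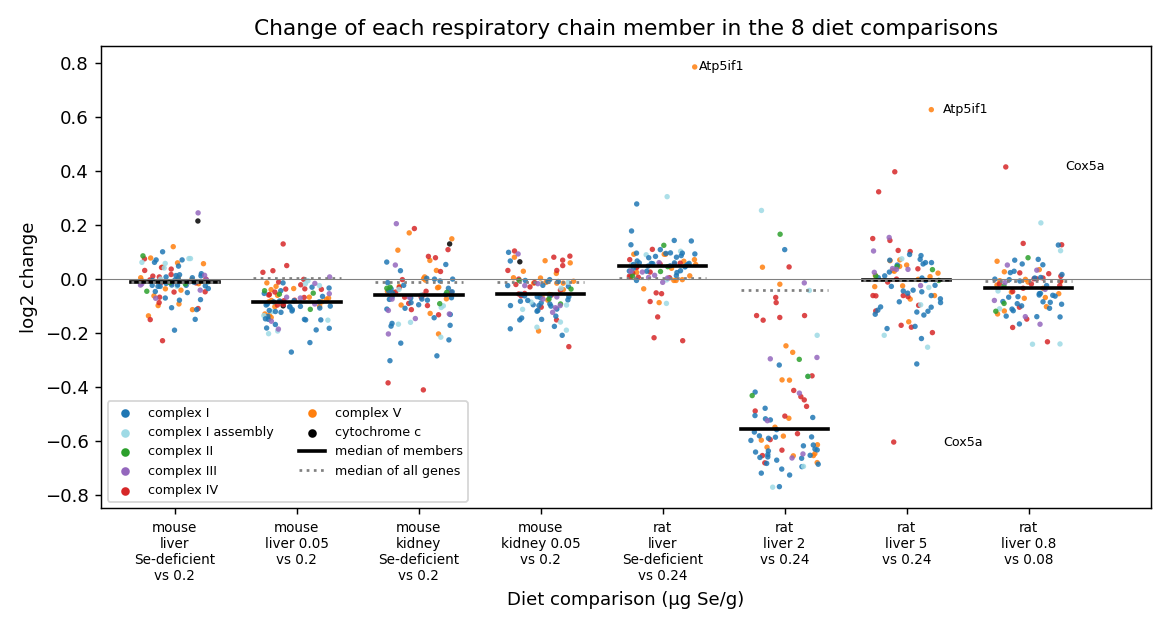
Log2 change of each member (points, coloured by complex) in the 8 diet comparisons, with the median of the members (black line) and of all genes (dotted line). The mouse comparisons stay between −0.41 and 0.24, while in rat liver at 2 μg Se/g the median member is at −0.55.

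Far more members differed between kidney and liver than between any diets compared. At 0.2 μg Se/g, 57 of 91 members were called (limma), which is 62.6% of them against 65.9% of all probe sets. These shares are near each other, but the first counts 1 probe set per gene and the second every probe set. Of the 57 called members, 40 were higher in kidney (36.5% of all probe sets were) and 17 lower (29.3%). The study normalized the tissues separately, and quantile normalization over all 18 mouse arrays gave 58 higher and 12 lower. It kept 39 of the 40 and 11 of the 17, turned no call around, and moved the median member from 0.15 to 0.40 and the median probe set from 0.06 to −0.02. Both the balance of higher to lower members and the values of single members therefore depended on the scaling: Atp5g1, for example, was at −0.33 as deposited and −0.07 after quantile normalization, Uqcrq at −0.58 and −0.28, and Atp5g3 at 0.10 and 0.48. The 36.5% and 29.3% of all probe sets belong to the deposited scale, so the counts after quantile normalization have no such share beside them. The values that follow are on the deposited scale unless the other is named.

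Complex IV held the widest differences. Cox7a1, the heart and muscle form of subunit VIIa, was at 8.17, 7.96 and 7.07 in kidney and at 5.85, 5.60 and 5.56 in liver. The log2 difference was 2.07 (SE 0.22, adjusted p = 2.1e-07 by limma), and no 2 values of the tissues overlapped. The liver values were not shown to be above background, so no exact fold is given. Cox7a2, the form of the same subunit found in most tissues, was at 13.74, 13.72 and 13.57 in kidney and at 13.39, 13.39 and 13.41 in liver, a difference of 0.28 (SE 0.07, adjusted p = 0.0023 by limma).

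Cox7c was higher in kidney by a log2 difference of 1.78 (SE 0.14, adjusted p = 6.1e-09 by limma), on a probe set that read only 6.79, 6.95 and 6.66 in kidney and 5.16, 5.01 and 4.87 in liver, where it was likewise not shown to be above background. Its other probe set with 1 symbol differed by 1.02 (SE 0.18). Cox8a, the common form of subunit VIII, was higher by 0.56 (SE 0.09, adjusted p = 3.7e-05 by limma). Cox8c, a form known from testis, was lower by 0.87 (SE 0.10, adjusted p = 5.6e-07 by limma), at 8.88, 8.94 and 9.12 against 9.77, 9.84 and 9.95, but its second probe set differed by only 0.07 (SE 0.10). Cox4i1, the common form of subunit IV, was higher by 0.30 (SE 0.07, adjusted p = 0.0012 by limma), while Cox4i2, a form known from lung, differed by −0.17 (SE 0.08) and was not called. Ndufa4l2, related to the complex IV subunit Ndufa4, was lower by 0.33 (SE 0.08, adjusted p = 0.0015 by limma).

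Complex I had 16 of 34 members higher and 6 lower in kidney. Ndufs1, the large iron-sulphur subunit that carries electrons within the complex, was at 11.35, 11.30 and 11.22 in kidney and at 10.17, 10.13 and 10.02 in liver. It was 2.27-fold higher (log2 1.18, SE 0.09, adjusted p = 4.5e-09 by limma). Ndufb3 (0.75), Ndufab1 (0.68), Ndufa13 (0.52) and Ndufb8 (0.49) were also higher, with SE of 0.06 to 0.08. Ndufab1 is the mitochondrial acyl carrier protein. Lower were Ndufa8 (−0.55), Ndufc1 (−0.42), Ndufb1 (−0.37), Ndufb10 (−0.36) and Ndufa7 (−0.32), with SE of 0.08 to 0.11. Ndufc1 had a second probe set at a like level that differed by 0.37 in the other direction (SE 0.09), and 2 of the 4 other probe sets of Ndufa7 did not differ beyond their error. Ndufv1, the subunit that binds FMN, differed by −0.05 (SE 0.12).

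Of the Ndufaf genes 5 were higher and 1 lower. Ndufaf7, a methyltransferase that acts on a complex I subunit, and Ndufaf5, which hydroxylates one, were both higher by 0.60 (SE 0.09 and 0.08). Ndufaf1 was lower by 0.53 (SE 0.12). In complex II the calls depended on the scaling: Sdha, Sdhb and Sdhd differed by 0.06, 0.08 and 0.11 and were not called as deposited, but with quantile normalization they were called higher by 0.32, 0.38 and 0.40. Sdhc was higher by 0.38 (SE 0.13, adjusted p = 0.014 by limma), with kidney values of 11.90, 11.79 and 11.28 that spread wide.

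In complex III, 3 of 8 members were higher and 2 lower. Uqcrfs1, the Rieske iron-sulphur protein, was at 12.57 ± 0.04 (SD, n = 3) in kidney and 11.99 ± 0.04 in liver, a difference of 0.58 (SE 0.07, adjusted p = 1.1e-06 by limma). The small subunits Uqcr11 and Uqcrq were lower by 0.66 and 0.58 (SE 0.10 each), Uqcr11 at 11.995, 12.09 and 11.84 against 12.52, 12.69 and 12.69. Cycs was higher on its main probe set, at 13.06, 13.21 and 13.26 against 12.50, 12.46 and 12.43 (difference 0.71, SE 0.08, adjusted p = 1.0e-06 by limma), and its other probe sets differed by 0.39, 1.20 and 1.37 in the same direction.

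In complex V, 5 of 17 were higher and 5 lower. Atp5b, the catalytic β subunit, was higher by 0.43 (SE 0.07, adjusted p = 3.4e-05 by limma), and Atp5a1, the α subunit, differed by 0.16 (SE 0.07) and just missed the threshold (adjusted p = 0.058 by limma). Atp5md, a small subunit of the membrane part, was higher by 0.53 (SE 0.08). Atp5e, the ε subunit, was at 11.27, 11.59 and 11.52 in kidney and 12.04, 12.20 and 12.07 in liver, lower by 0.64 (SE 0.09, adjusted p = 6.2e-06 by limma). Atp5g2, 1 of 3 genes for the membrane ring subunit, was lower by 0.50 (SE 0.10), while Atp5g3, another of them, differed by 0.10 (SE 0.06). The other probe sets of Atp5g2, at mean levels of only 4.02 and 4.48, differed by 0.37 (SE 0.11) and −0.38 (SE 0.12).

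**Figure D2:**
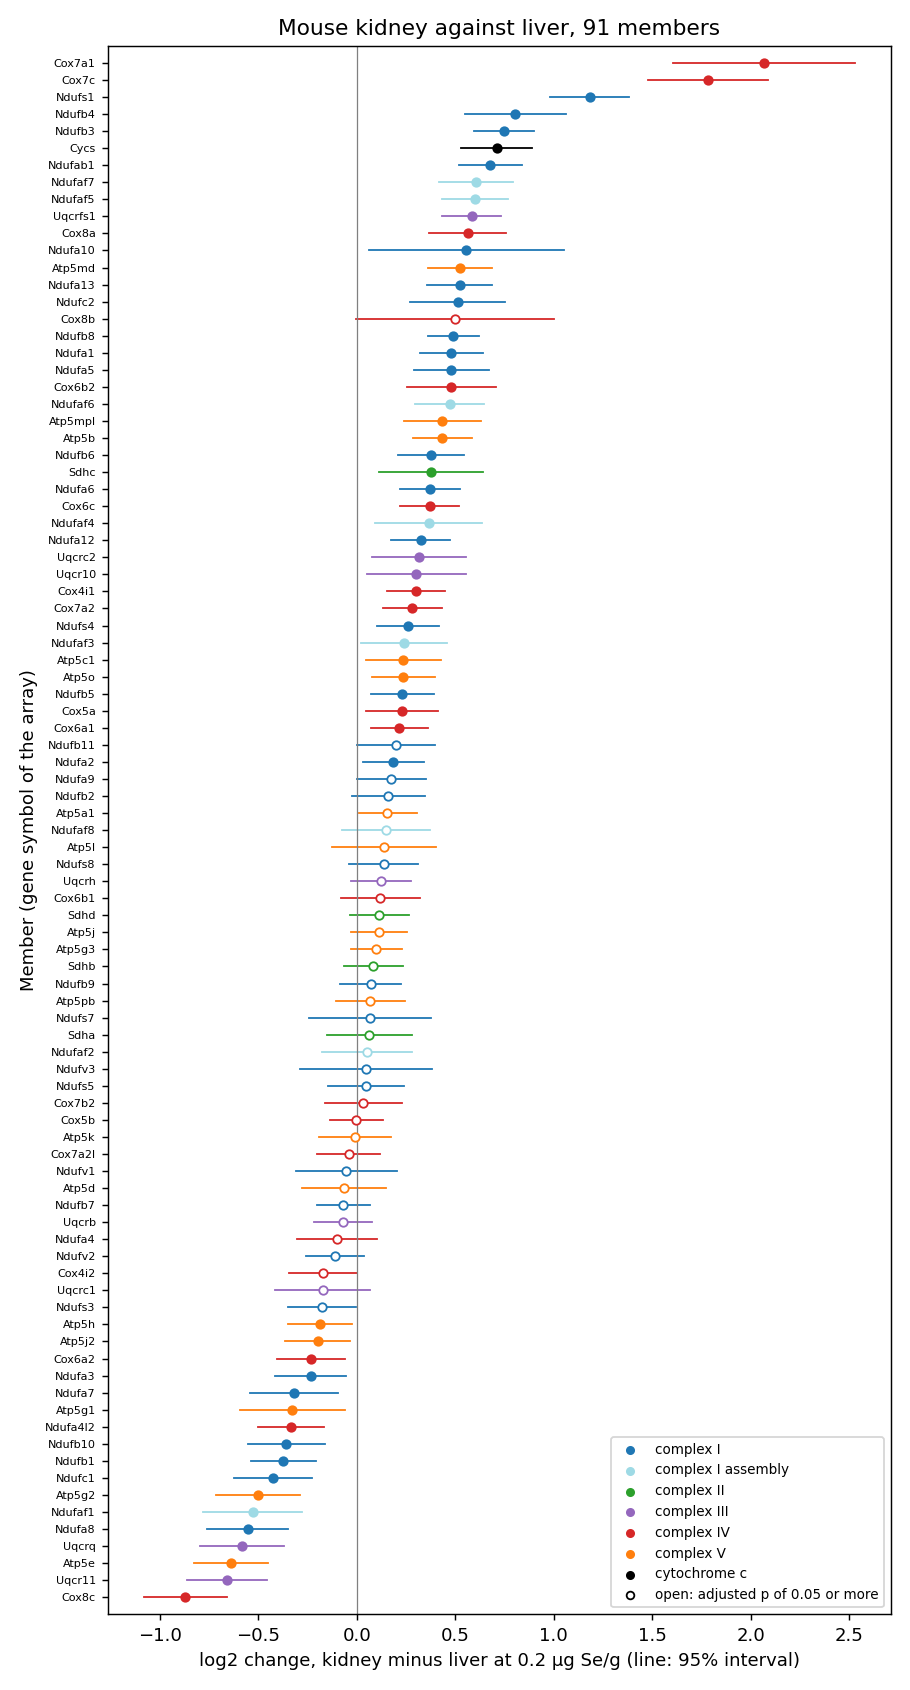
Log2 difference between mouse kidney and liver at 0.2 μg Se/g for each of the 91 members, ordered by size, with its 95% interval; filled points passed the adjusted p threshold, and colours give the complex. The members spread from −0.87 for Cox8c to 2.07 for Cox7a1, and members of 1 complex lie on both sides of 0.

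Genes with an NRF-1 core before their start had unequal differences between the tissues. Among those printed above, Cycs was higher by 0.71, Ndufaf4 by 0.37 and Cox6a1 by 0.22. Atp5j and Atp5k differed by 0.11 and −0.01 without a call, and Atp5g2 was lower by 0.50 on its main probe set. With quantile normalization Atp5j and Atp5k were called higher, by 0.41 and 0.27, and Atp5g2 was still called lower, by 0.32. Of the genes for the factors, Esrra was 1.92-fold higher in kidney (log2 0.94, SE 0.08), Nrf1 was lower by 0.39 (SE 0.09), and Gabpa and Yy1 were not called, at 0.11 (SE 0.15) and 0.03 (SE 0.11). Of 16 listed regulators of mitochondrial biogenesis, 5 were called higher and 4 lower. They included Twnk, the mitochondrial DNA helicase, at −0.44 (SE 0.08).

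Counts in other gene lists are read against the 36.5% of all probe sets called higher in kidney and the 29.3% called lower. In the TCA cycle, which feeds the chain with NADH and succinate, 12 of 13 genes were higher, with a median of 0.52, and the largest were Idh2 (1.85), Idh3a (1.69) and Idh3g (1.62), all isocitrate dehydrogenase genes. Only Fh1 did not differ (−0.02, SE 0.08). Among carriers and import proteins 9 of 19 were higher and 7 lower. Slc25a4, an ATP/ADP carrier of muscle and heart, was at a log2 difference of 5.13 (SE 0.15), and Slc25a5, the form found in most tissues, at 0.55 (SE 0.08). The mitochondrial ribosome had 30 of 76 higher and 18 lower (median 0.05), near the shares of all probe sets. Assembly factors outside the member list had 11 of 31 higher and 10 lower.

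Cox8b and Cox7a1 varied more between kidneys than other members did. Cox8b, the heart and muscle form of subunit VIII, which is also high in brown fat, was at 7.32 on Se-adequate replicate 1 and at 5.95 and 6.09 on replicates 2 and 3. The other 6 kidneys lay between 6.33 and 6.84, and the 9 livers between 5.71 and 6.15. The difference of Cox8b between the tissues was 0.50 (SE 0.24) and not called. Replicate 1 was also the highest array for the adipocyte markers Ucp1 (8.36, other kidneys 5.77 to 7.14), Cidea (7.16, others 5.11 to 6.52) and Adipoq (6.79, others 4.40 to 5.68), while Lep was at 5.16 (others 5.11 to 5.42). The part of fat tissue in the Cox8b value was not tested. Cox7a1 was high on Se-adequate replicates 1 and 2 (8.17 and 7.96) and low on replicate 3 (7.07). Ucp1 was at 8.36, 5.77 and 6.05 on the same arrays, and the median of 5 skeletal muscle markers at −0.06, −0.03 and 0.09 relative to their mean. The part of other tissues in the Cox7a1 values was not tested.

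**Figure D3:**
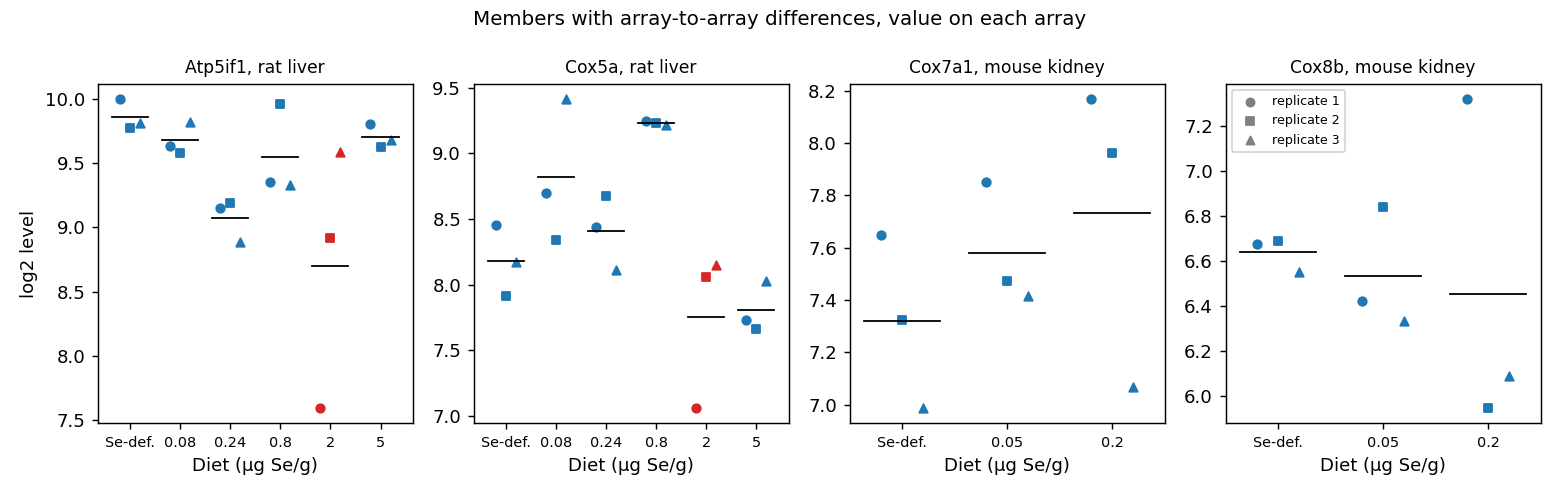
Log2 level on each array (symbols mark replicates, lines the group mean, red the rat arrays at 2 μg Se/g) of Atp5if1 and Cox5a in rat liver and of Cox7a1 and Cox8b in mouse kidney. Atp5if1 is lowest at 0.24 μg Se/g apart from replicates 1 and 2 at 2 μg Se/g, and 1 Se-adequate kidney carries the high Cox8b value.

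In rat study 2 the chain was close to its Se-adequate level on all liver arrays except 2 of those at 2 μg Se/g. Relative to the mean at 0.24 μg Se/g, the median of the 86 members was −1.36 on replicate 1, −0.33 on replicate 2 and 0.01 on replicate 3. The 3 arrays at 0.24 μg Se/g were at 0.03, −0.08 and 0.04, and the Se-deficient and 5 μg Se/g arrays lay between −0.04 and 0.13. On replicate 1 the median member was thus at 0.389 of its Se-adequate level and on replicate 2 at 0.797. The 3 animals had the same diet, so each array is described by itself.

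On replicate 1, 78 of 86 members (90.7%) were below all 3 arrays at 0.24 μg Se/g, as were 42.6% of all genes. On replicate 2 there were 77 (89.5%, against 40.3% of all genes) and on replicate 3 there were 7 (8.14%, against 18.2%). Replicate 1 had 59 members lower by over 1, as were 7.11% of all genes. Replicates 2 and 3 had 0 each, where 0.141% and 0.218% of all genes were lower by over 1.

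**Figure D4:**
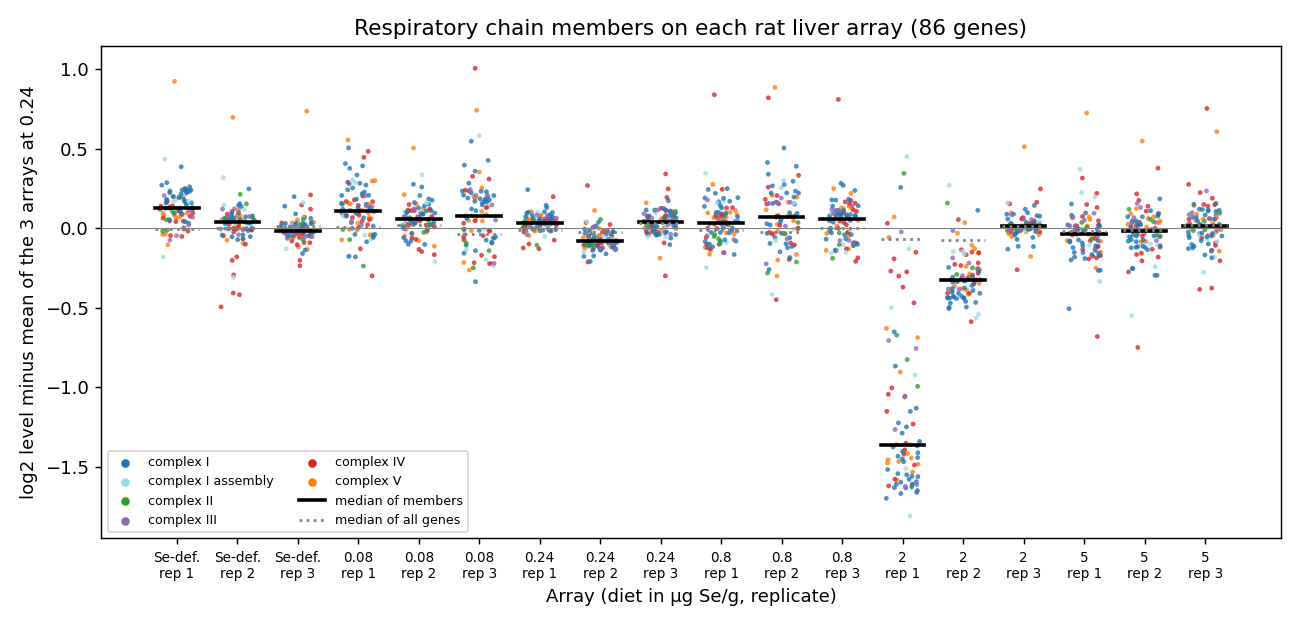
Difference of each of the 86 members (points, coloured by complex) from the mean of the 3 arrays at 0.24 μg Se/g, on each of the 18 rat liver arrays, with the median of the members (black) and of all genes (dotted). Replicate 1 at 2 μg Se/g has its median at −1.36 and replicate 2 at −0.33, while replicate 3 lies with the other study 2 arrays; the study 1 arrays are drawn beside them and not compared.

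The lower values on replicate 1 reached every complex but not every subunit. Complex I had a median of −1.49, with 31 of 34 subunits lower by over 1, and complex V −1.43, with 11 of 16. Complexes III, IV and II had medians of −1.06, −1.04 and −0.75. The lowest members were Ndufaf8 (−1.81), an assembly factor, and the small complex I subunits Ndufa5 (−1.70), Ndufb2 (−1.67) and Ndufb10 (−1.66), followed by Ndufs7 (−1.65). Ndufaf8 was at 7.31, 8.58 and 9.15 on the 3 arrays at 2 μg Se/g and at 9.20, 9.09 and 9.06 at 0.24 μg Se/g, 3.50-fold lower on replicate 1. Ndufa5 was at 8.58, 9.78 and 10.16 against 10.34, 10.10 and 10.39. Cox4i1 was at 12.15, 12.98 and 13.36 against 13.32, 13.20 and 13.38. In each case replicate 1 was far below, replicate 2 somewhat below and replicate 3 near or within the Se-adequate values.

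Some subunits were not lower on replicate 1 while others of the same complex were. Sdha, the flavoprotein of complex II, was at 12.42, 12.23 and 12.07 at 2 μg Se/g and at 11.97, 12.13 and 12.12 at 0.24 μg Se/g, so replicate 1 was 0.34 above the Se-adequate mean, while its partner Sdhb was at 11.67, 12.37 and 12.65 against 12.71, 12.60 and 12.69. Ndufs1 was 0.26 higher on replicate 1 and was the only complex I subunit that was not lower there, while Ndufv1 was at −0.65 and Ndufs8, another iron-sulphur subunit, at −1.58. Atp5f1a, the α subunit of ATP synthase, differed by 0.07, Atp5f1b, the β subunit, by −0.06 and Uqcrc2 by −0.02, while Uqcrfs1 of the same complex was at −0.75. The assembly factor Ndufaf4 was 0.45 higher on replicate 1 and 0.27 higher on replicate 2. The other members within 0.5 of the Se-adequate mean on replicate 1 were Ndufaf1, Ndufaf7, Cox6c-ps1 and 7 tissue forms with low values in liver (Cox4i2, Cox6a2, Cox6b2, Cox7a1, Cox7b2, Cox8b and Ndufa4l2, at Se-adequate means of 3.58 to 5.12). These 16 members and the 5 lowest were picked out after their values were seen.

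Other gene groups of the same arrays were lower too. The mitochondrial ribosome (73 genes) had medians of −1.35, −0.42 and 0.02 on replicates 1 to 3, the cytosolic ribosome (48 genes) −1.11, −0.16 and 0.06, and the proteasome (37 genes) −0.83, −0.29 and −0.01. Assembly factors outside the member list were at −0.60, −0.27 and 0.00, and the TCA cycle at −0.15, −0.01 and 0.04. Regulators of mitochondrial biogenesis were at 0.14, 0.00 and −0.03, and the hepatocyte markers at 0.01, 0.01 and −0.04. Lys and Phe, bacterial transcripts that serve as labelling controls of the array, were lower by 0.70 and 0.64 on replicate 1 and by 0.41 and 0.31 on replicate 2, where the arrays of the other study 2 diets lay between −0.17 and 0.30. The other labelling controls, Dap and Thr, did not follow this order: they were at −0.22 and −0.19 on replicate 1, −0.33 and −0.27 on replicate 2, and −0.17 and −0.03 on replicate 3. The hybridization controls BioB, BioC, BioD and Cre lay between −0.16 and 0.14 on the 3 arrays. The 3′ to 5′ difference of Actb, a sign of RNA integrity, was 1.44 to 1.53 at 2 μg Se/g and 1.38 to 1.72 on the other study 2 arrays. The part of the sample preparation in these values was not tested.

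**Figure D5:**
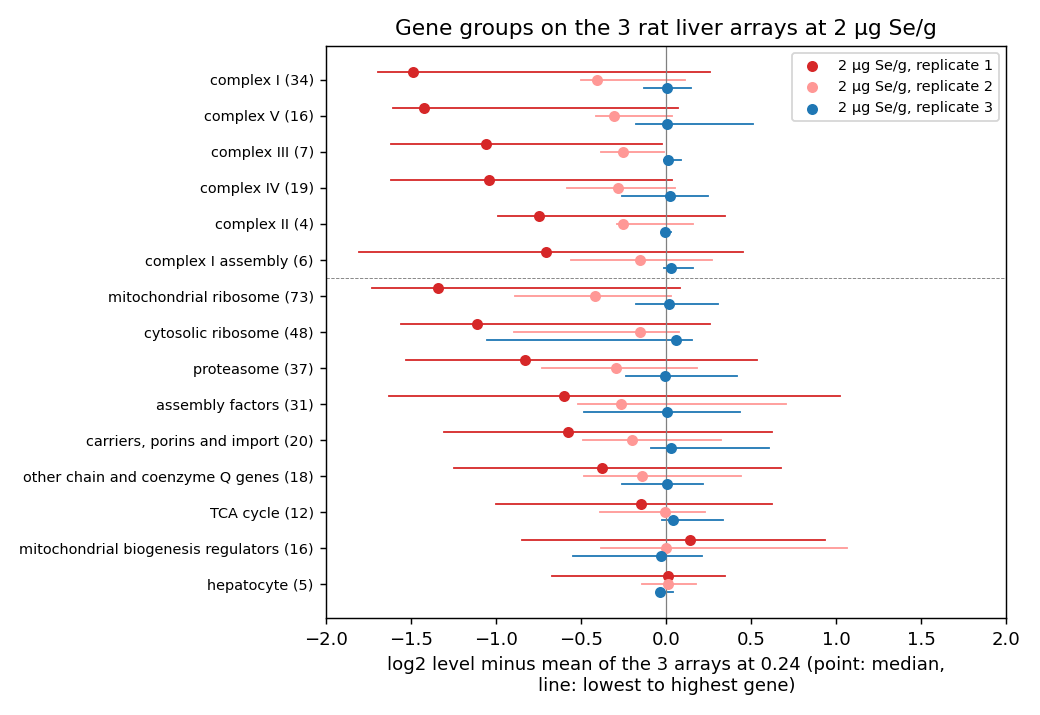
Median (points) and lowest to highest gene (lines) of gene groups on the 3 rat liver arrays at 2 μg Se/g, as log2 difference from the mean at 0.24 μg Se/g, with the number of genes in brackets and the member groups above the dashed line. Replicate 1 is lowest for the complexes and both ribosomes and near 0 for the TCA cycle and the hepatocyte markers; replicate 3 is near 0 in median for all groups shown.

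As a group, the arrays at 2 μg Se/g gave a median change of −0.55 (all genes −0.04) and no called member (limma, with 0.00322% of all probe sets called), with 3 animals that differed widely. At an unadjusted p under 0.05 there were 34 members (39.5%, against 15.3% of all probe sets), and the smallest adjusted p, 0.32, was shared by Ndufa8 (−0.63, SE 0.23), Atp5mpl (−0.68, SE 0.25) and Ndufa5 (−0.77, SE 0.30). Without replicate 3 the call turned: 67 members were then called lower, with 18.7% of all probe sets called, and without replicates 1 and 2 the median was 0.01 and 0 members were called.

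In Se-deficient rat liver the members lay slightly higher in the mean, by less than single members could be called and unevenly over the animals. Relative to the mean at 0.24 μg Se/g, the median member was at 0.126, 0.041 and −0.018 on Se-deficient replicates 1 to 3. The arrays at 0.24 μg Se/g were at 0.035, −0.078 and 0.039, so the arrays overlapped. On the Se-deficient replicates 60, 24 and 9 members lay above all 3 control arrays. The share of all genes above them was not counted, so these counts have no background beside them. Below all 3 control arrays lay 2, 12 and 9 members, as did 26.9%, 23.2% and 17.6% of all genes. No member was called, with 0.00322% of all probe sets called by limma, and 1 had an unadjusted p under 0.05 (1.16%, against 3.40%). The median change was 0.05 (all genes 0.00), with 15 of 86 means lower (17.4%, against 48.9% of all genes) and only 1 of the 34 complex I subunits among them, and 39 of 86 intervals lay within 1.5-fold. The spread between the arrays at 2 μg Se/g widened all intervals of this fit: without those arrays 84 of 86 lay within 1.5-fold, still with 0 members called and 0.0129% of all probe sets. The smallest p with all arrays belonged to Ndufaf7, at 8.50, 8.38 and 8.22 against 8.07, 8.10 and 8.01 (difference 0.30, SE 0.12, adjusted p = 1.0 by limma), then Atp5if1 and Cox6b2 (−0.22, SE 0.16). The other probe set of Ndufaf7, at a mean level of 5.92, differed by −0.05 (SE 0.12).

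At 5 μg Se/g, the highest amount fed, many genes changed. The part of lower growth and liver damage in the values at this diet was not tested. No member was called by limma while 2.82% of all probe sets were, and 2 members had an unadjusted p under 0.05 (2.33%, against 14.7% of all probe sets). The median change was −0.01 (all genes 0.00). By complex the medians ran from −0.06 (complex I assembly and complex IV) to 0.04 (complex III). In this fit 36 of 86 intervals lay within 1.5-fold. With the arrays at 2 μg Se/g left out, 80 of 86 did, and 1 member was called, Atp5if1, with 4.45% of all probe sets called.

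Atp5if1 encodes the inhibitor that keeps ATP synthase from running backwards. It was at 9.80, 9.62 and 9.68 at 5 μg Se/g and at 9.998, 9.77 and 9.81 in Se deficiency, above the values of 9.15, 9.19 and 8.89 at 0.24 μg Se/g in both cases without overlap. With all study 2 arrays the change was 0.63 at 5 μg Se/g (SE 0.36, adjusted p = 0.47 by limma) and 0.78 in Se deficiency (SE 0.36, adjusted p = 1.0 by limma). Without the arrays at 2 μg Se/g the SE fell to 0.11 and the adjusted p to 0.012 and 0.12. At 2 μg Se/g it was at 7.60, 8.92 and 9.59, and only replicate 3 lay above the 3 control values. In study 1 it was at 9.63, 9.58 and 9.82 (0.08 μg Se/g) and 9.35, 9.96 and 9.33 (0.8 μg Se/g). Both contrasts rest on the same 3 control arrays, the lowest group apart from 2 μg Se/g. Its 2 other probe sets differed by 0.11 (SE 0.28) and 0.44 (SE 0.31) at 5 μg Se/g, at mean levels of 5.96 and 5.06.

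Cox5a, a nuclear subunit of complex IV, was at 7.73, 7.66 and 8.03 at 5 μg Se/g, below the 8.44, 8.68 and 8.11 at 0.24 μg Se/g without overlap (difference −0.60, SE 0.26, adjusted p = 0.31 by limma; 0.091 without the arrays at 2 μg Se/g). Its values moved widely in other diets as well, from 8.34 to 9.41 over the 3 arrays at 0.08 μg Se/g. Cox6a2, the heart and muscle form of subunit VIa, was at 5.30, 5.30 and 5.84 against 5.07, 5.12 and 5.06 (difference 0.40, SE 0.15, adjusted p = 0.22 by limma). At 5 μg Se/g 4 of 7 stellate cell and fibroblast markers were called higher, with a median of 0.93 over the 7, while the median of 5 hepatocyte markers was 0.01. Single markers of other cells were called too. Of 4 cholangiocyte markers only Krt19 was called (2.63), and of 4 endothelial markers only Pecam1 (0.92). Of 2 podocyte markers only Podxl was called (1.65), and of 5 macrophage markers only Clec4f, which was lower (−1.78). The part of these cells in the values of single members was not tested.

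Near the chain, 2 genes of the fixed lists changed at 5 μg Se/g. Slc25a4 rose by 1.29 (SE 0.24, adjusted p = 0.016 by limma) and Coq10a, which helps coenzyme Q to work in the chain, fell by 0.55 (SE 0.12, adjusted p = 0.039 by limma). No gene of the TCA cycle (12), the mitochondrial ribosome (73), the biogenesis regulators (16) or the assembly factors (31) was called in that fit.

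In rat study 1 the 86 members did not differ detectably between 0.8 and 0.08 μg Se/g. By limma 0 members and 0% of all probe sets were called, 0 members had an unadjusted p under 0.05 (4.58% of all probe sets did), the median was −0.03 (all genes −0.01), and 85 of 86 intervals lay within 1.5-fold. The smallest p belonged to Cox8b (−0.23, SE 0.12), Cox5a (0.41, SE 0.24) and Ndufaf7 (−0.24, SE 0.14). The labelling controls of these 6 arrays were 3.20 to 4.01 above those at 0.24 μg Se/g, so levels of study 1 and study 2 are shown side by side and not tested against each other.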

How the data were processed

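The deposited values are log2 expression levels per probe set, made by the authors from the array scans with GCRMA per the submitters' processing notes, in a version not given in the sources used here. RMA is the method that the paper's text names. They were used as deposited, without a filter on signal, and 0 per-sample columns were left unused. Array controls (64 mouse and 57 rat probe sets) stayed out of the tests. Levels have no read depth: 3 arrays per group limit the precision, and p-values measure the spread between single animals.

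Fits used R 4.3.3 and limma 3.58.1 (lmFit with 1 coefficient per group, eBayes, Benjamini-Hochberg over 45037 mouse or 31042 rat probe sets), and figures matplotlib 3.10.9. Each mouse tissue (9 arrays), rat study 2 (12) and rat study 1 (6) was fitted on its own. The comparisons between tissues used the 18 mouse arrays. The assignment of rat diets to studies follows the paper's text. Fits were tested on simulated data.

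Members and gene lists were chosen with earlier results of these data known, and the cytosolic ribosome and proteasome lists after the values were seen. Named members are the called ones, up to 12 per direction by p, or otherwise the 3 with the smallest p, plus 1 or more fixed subunits and tissue forms of each complex. Sdhc, Slc25a5 and the genes with promoter motifs are named besides. Symbols come from the platform annotation of the arrays, and promoters from RefSeq.

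The replicate numbers may mark pairs. Residuals of equal numbers correlated at 0.462, 0.105 and 0.319 in mouse liver for Se deficiency against Se adequacy. For kidney against liver at 0.2 μg Se/g the values were 0.241, 0.116 and 0.214, each above the limit of 0.1. In the other diet comparisons at least 1 number lay below it.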

Additional observations from a re-analysis of the deposited data

How the results depend on the processing

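Alternatives changed the arrays in the fit (only the groups compared, or the whole species), the variance model (trend and robust, or array weights), the values (quantile normalization, low probe sets dropped, the mean over probe sets) and the design (each array left out in turn, or a replicate block). Of 153 recomputed counts of called members 148 stayed within 1.5 times the count given. No named member changed direction in any of 727 refits. Most of these members were picked by p from the same arrays, which makes an unchanged direction likely, so it adds no support for them. At 2 μg Se/g array weights called 69 members (42.0% of all probe sets) in place of 0. Leaving out single arrays gave 0 to 67, and the highest count came without replicate 3 of that diet. In the 5 μg Se/g comparison 1 member was called with only the groups compared (Atp5if1), with array weights (Cox5a) and, as added after seeing the data, without the 3 arrays of the 2 μg Se/g diet (Atp5if1). With labelling controls as a covariate, also added later, no member was called, as in the main fits of rat study 2. All 4 controls gave medians of 0.03 for 2 μg Se/g, 0.09 for 5 μg Se/g and −0.08 for Se-deficient rats. Lys and Phe alone, singled out after their values were seen, gave −0.01, 0.02 and −0.13 in this order. Neither is used to weigh a cause, as Lys and Phe were lowest on the same array as the members. Kidney against liver gave 46 to 70 called members, and these counts are not set against the share of all probe sets in each setting. Under the replicate block 58 were called in place of 57, and 0 in Se-deficient mouse liver, and it changed no other count from 0. Ndufc1 and Ndufa7 were not called with quantile normalization or with the mean of all probe sets, and Ndufa7 also not without liver replicate 1 or kidney replicate 3 at 0.2 μg Se/g. Without that liver replicate the median of kidney against liver was 0.20 in place of 0.15. Signal over background was not tested per probe set.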

Other observations

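Ndufa10, an accessory subunit of complex I chosen here after its values were seen, split by replicate number in the mouse. In liver replicate 1 was the highest array under all 3 diets, at 11.72, 11.91 and 12.04 in Se deficiency, 0.05 and 0.2 μg Se/g, where replicates 2 and 3 lay between 11.25 and 11.52. In kidney replicate 1 was the lowest array under all 3 diets, at 11.44, 11.54 and 12.05, where replicates 2 and 3 lay between 12.11 and 12.38. No cause was tested.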
